A study of Zea mays with 4 samples.

Results

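The genes shrunken1 (sh1, GRMZM2G089713), shrunken2 (sh2, GRMZM2G429899), brittle2 (bt2, GRMZM2G068506) and brittle1 (bt1, GRMZM2G144081) supply ADP-glucose to the starch-forming plastid of the maize kernel. They were chosen by these identifiers, and all 4 were listed among the 34567 genes with a value above 0 in any library. RNA had been sequenced from maize endosperm, the storage tissue of the kernel, 10 days after pollination. Wild-type endosperm was compared with endosperm of a mutant labelled dek, and each genotype had libraries A and B, 4 in all. Every library pooled 8 to 10 individuals, and 2 different ears that segregated for the mutant were used. The labels do not tie pools to ears, and the p-values measure the spread between pools, in part as shared over all genes. Where a pair of values is given for a genotype, library A comes first. The labels name neither the mutated gene nor the allele, so no transcript could serve as a check of the genotype.

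In the starchy endosperm, sucrose synthase cleaves imported sucrose into fructose and UDP-glucose, and hexose phosphates derived from these feed ADP-glucose pyrophosphorylase. Most of that enzyme lies in the cytosol in cereal endosperm, as an assembly of large subunits (encoded by sh2) and small subunits (encoded by bt2). The carrier encoded by bt1 brings ADP-glucose across the plastid envelope, where starch synthases use it. Mutants of all these genes have been known for shrunken or brittle kernels.

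All 4 genes were among the most abundant transcripts of wild-type endosperm and all 4 fell in dek, but by very different amounts. The small subunit gene bt2 fell furthest, from 2207 ± 102 to 89.7 ± 5.54 FPKM, fragments per kilobase scaled to library size (mean ± SD, n = 2, as are all such values here). The large subunit gene sh2 fell least, from 1749 ± 88.9 to 488 ± 25.8 FPKM. The threshold was an adjusted p of 0.05 in edgeR's quasi-likelihood test over 24624 genes, with Benjamini-Hochberg adjustment. At this threshold 4 of the 4 genes were lower, while 8.85% of all genes tested were lower and 7.98% were higher. With libraries scaled by total counts, the split of all calls moved from 2178 lower and 1966 higher to 1280 and 4492. Without dek A, dek B or wild type B, 668, 844 and 2667 genes passed in all, and the 4 genes passed each time. In bulk RNA, fewer starch-forming cells and less of these transcripts per cell cannot be told apart.

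The estimated counts summed to 13119658 to 14776699 per library, and each of the 4 genes had at least 2291 counts in every library. Zein genes, which encode the storage proteins that mark starchy endosperm, were present in all libraries, with summed levels of 51030 and 49320 FPKM in wild type, against 3613 and 6034 FPKM in dek. Each of the 24 tested was lower in the mutant, and the summed level was 10.4-fold lower. The summed level of 12 basal transfer layer genes, which mark the sugar-importing base of the endosperm, was 2522 and 686 FPKM in wild type, against 7521 and 4981 FPKM in dek. Their median log2 fold change was 1.77, and 2 of the 12 passed the test, both higher. At an unadjusted p of 0.05, 9 of them passed in edgeR, and at the adjusted threshold 3 in DESeq2 and 2 in limma. A list taken as embryo genes held oleosin, globulin-1 and late embryogenesis abundant genes and lec1. Of its 12 genes tested, 6 were lower and 6 did not pass, with sums of 873 and 1026 FPKM in wild type against 208 and 198 in dek. The oleosin gene ole1 made up most of the wild-type sums, with 548 and 596 FPKM there against 82.7 and 77.9 in dek. In which tissue the genes of this list were expressed was not tested. None of the 4 aleurone or 4 embryo-surrounding region genes passed. At an unadjusted p of 0.05, 1 aleurone and 0 embryo-surrounding region genes passed in edgeR, and at the adjusted threshold 1 and 0 in limma and 0 of either in DESeq2. The aleurone sums were 290 and 288 FPKM in wild type against 313 and 339 in dek, and the embryo-surrounding region sums were 113 and 21.6 against 161 and 170. Leaf and photosynthesis genes summed to 8.82 FPKM or less in every library. The lists could hold only genes with a value above 0 in some library, and the embryo regulator lec1 was at 0 in wild type B. The part of these cell types in the values of the 4 genes was not tested.

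The sucrose synthase gene sh1 had 3102 FPKM in wild type A and 2328 in wild type B, against 279 in dek A and 476 in dek B. It was the 18th and 21st most abundant gene of the wild-type libraries and the 379th and 172nd of the dek libraries. The genotypes did not overlap, and the lowest wild-type value was 4.89-fold above the highest dek value. It also varied most between pools, by 1.33-fold between the wild-type libraries and 1.71-fold between the dek libraries. Its fitted log2 fold change was -3.15 (SE 0.314), an 8.85-fold fall (edgeR quasi-likelihood, adjusted p = 0.00522). The fits scaled libraries by edgeR's TMM factors, which made falls in dek larger by 0.306 on the log2 scale than total counts did. Fitted folds are thus larger than those between the mean FPKM values, which were 7.2 for sh1, 3.58 for sh2, 24.6 for bt2 and 5.51 for bt1.

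The large subunit gene sh2 had 1811 and 1686 FPKM in the wild-type pair, against 470 and 507 in the dek pair. The libraries of a genotype lay within 1.08-fold of each other, and the genotypes were at least 3.33-fold apart. The fitted log2 fold change was -2.14 (SE 0.129), a 4.42-fold fall (edgeR, adjusted p = 0.00161). Over all genes tested, 2.68% had a fold change as low as this or lower. Of the 1058 tested with at least 100 FPKM in wild type, 65 did.

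The small subunit gene bt2 had 2279 and 2134 FPKM in the wild-type pair, and 85.7 and 93.6 in the dek pair. The dek values were 4.06% of the wild-type mean and at least 22.8-fold below either wild-type library. From the 23rd most abundant gene of each wild-type library it moved to places 1320 and 1250 in dek. Its fitted log2 fold change of -4.92 (SE 0.148) was a 30.3-fold fall (edgeR, adjusted p = 0.000251), and 133 genes tested, or 0.54%, had one as low or lower. Among the 1058 genes tested with at least 100 FPKM in wild type, 29 fell as far.

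The carrier gene bt1 had 1993 and 1749 FPKM in the wild-type pair, against 312 and 367 in the dek pair. The genotypes did not overlap, with at least 4.76-fold between them. Its fitted log2 fold change was -2.76 (SE 0.159), a 6.79-fold fall (edgeR, adjusted p = 0.00156).

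**Figure D1:**
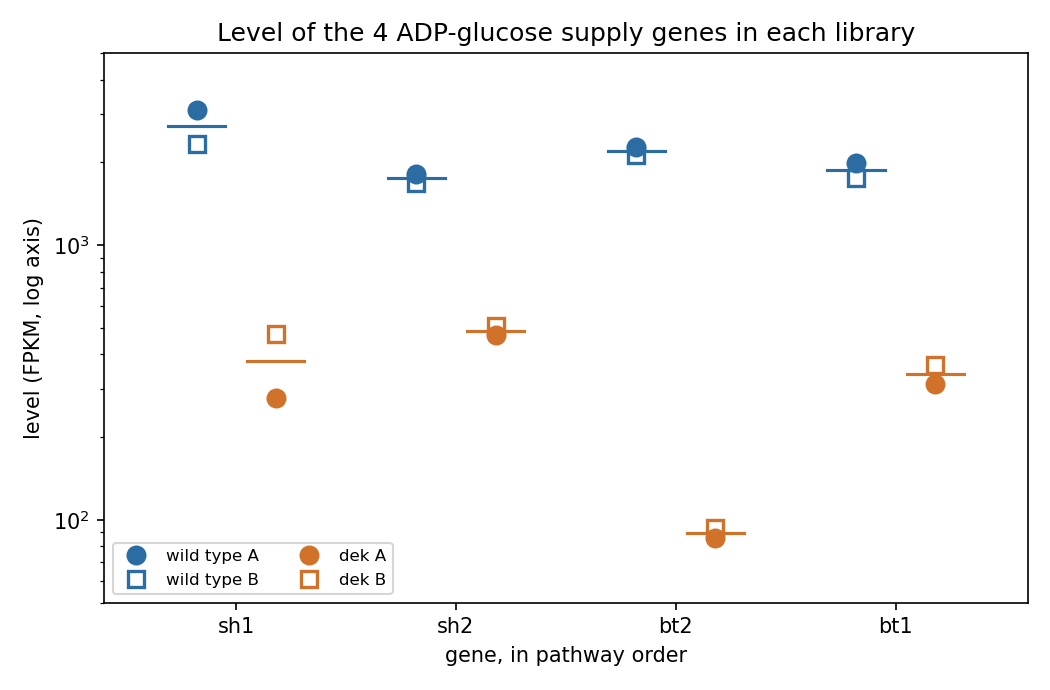
Level of sh1, sh2, bt2 and bt1 (x axis) in FPKM on a log axis (y axis), with 1 point for each library (filled circles: A, open squares: B) and a line at the mean of each genotype. All wild-type points lie at 1686 FPKM or above and all dek points at 507 or below, with bt2 in dek at 85.7 and 93.6.

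Between genes, FPKM values compare levels per length. In wild type the order was sh1, bt2, bt1 and sh2 in both libraries. The ranges of bt1 and sh2 overlapped there, while the other neighbours in the order did not overlap. In dek, sh2 was the highest in level and bt2 the lowest in both libraries. The dek values of sh1 overlapped with those of both sh2 and bt1, so the place of sh1 among the upper 3 genes was not resolved. The dek values of sh2 lay above those of bt1 without overlap, and bt2 lay below all of them. The gene lengths used for scaling moved by at most 0.15% between genotypes.

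Together the 4 genes took 2.03% and 1.72% of all counts in the wild-type pair, and 0.255% and 0.329% in the dek pair. The 95% Wilson intervals of these shares, which cover counting error only, reached no more than 0.0072 percentage points to either side. The shares of the genotypes did not overlap.

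Whether the pathway steps kept their proportions was asked with the 6 ratios between the genes, each tested with the counts of the second gene as the scale of every library. In these fits most genes of the table passed, because the gene used as the scale had itself fallen: 91.8% against sh2, 96.3% against sh1 and 95.7% against bt1. A pass is therefore not particular to these pairs, and the size of each ratio and its interval carry the information. In the fits against sh1 the spread was in effect pooled over all genes. Their p-values and intervals thus do not measure the spread of the pair itself.

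Within the pyrophosphorylase, the ratio of bt2 to sh2 was 1.26 and 1.27 in the wild-type pair and 0.182 and 0.185 in the dek pair. The small subunit transcript thus exceeded the large subunit transcript in wild type and was well below it in dek, with nearly identical values in the libraries of a genotype. The fitted log2 difference was -2.78 (95% interval -3.04 to -2.52; edgeR, adjusted p = 4.39e-05), a 6.87-fold change in the ratio.

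The ratio of bt2 to bt1 was 1.14 and 1.22 in wild type and 0.275 and 0.255 in dek, with a log2 difference of -2.16 (95% interval -2.53 to -1.79; edgeR, adjusted p = 9.9e-07). The ratio of bt2 to sh1 was 0.735 and 0.917 in wild type and 0.308 and 0.197 in dek, with a log2 difference of -1.71 (95% interval -2.63 to -0.80; edgeR, adjusted p = 0.0003). The bt2 transcript was thus lower in dek relative to each of the other steps. The ratio to sh1 did not pass without wild type A (log2 difference -1.86, adjusted p = 0.0535) or without wild type B (-1.54, adjusted p = 0.0687).

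Among the other 3 genes the shifts were smaller. The ratio of sh1 to sh2 was 1.71 and 1.38 in the wild-type pair and 0.593 and 0.939 in the dek pair, with a log2 difference of -1.01 (95% interval -1.53 to -0.49; edgeR, adjusted p = 0.00331). The ratio of bt1 to sh2 was 1.10 and 1.04 in wild type and 0.664 and 0.725 in dek, with a log2 difference of -0.62 (95% interval -0.89 to -0.36; edgeR, adjusted p = 0.00131). Both ratios were below 1 in dek and above 1 in wild type.

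The ratio of bt1 to sh1 was 0.642 and 0.751 in wild type and 1.12 and 0.772 in dek. The values of the genotypes did not overlap, but wild type B and dek B were close. The log2 difference of 0.44 did not pass (95% interval -0.46 to 1.34; edgeR, adjusted p = 0.344). With bt1 as the reference it came close to the threshold but did not pass either. The interval holds larger, equal and smaller falls of bt1 than of sh1, and it does not measure the spread of this pair. Whether the falls of bt1 and sh1 differed was thus not resolved.

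**Figure D2:**
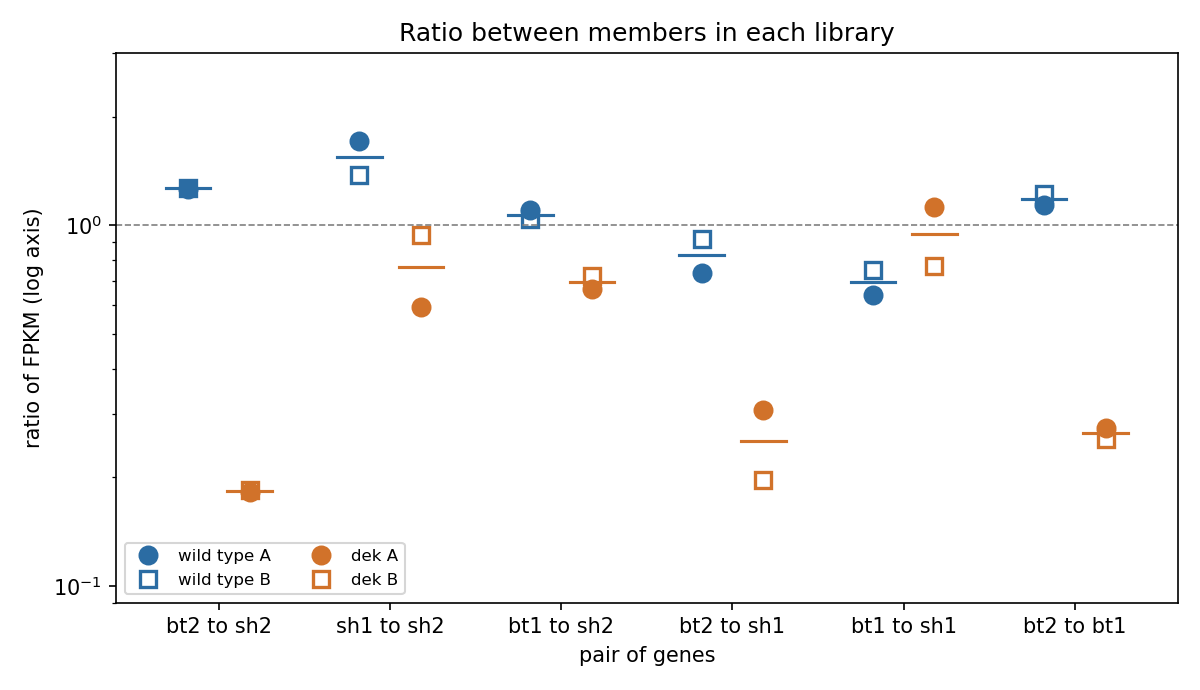
Ratio of the FPKM values (y axis, log scale) for the 6 pairs of genes (x axis), with 1 point for each library (filled circles: A, open squares: B), a line at the mean of each genotype and a dashed line at a ratio of 1. The 3 ratios with bt2 as the first gene fell from between 0.735 and 1.27 in wild type to between 0.182 and 0.308 in dek, and the ratio of bt1 to sh1 is the one pair in which dek lies above wild type.

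Each of the 4 genes belongs to a family in which other genes encode the same kind of protein. Counts of reads shared between near-identical copies were divided by the authors' estimation, so values of close relatives carry that uncertainty. Among 8 sucrose synthase genes listed, 5 were tested and 3, sh1 included, were lower, beside 8.85% lower over all genes tested. Their median log2 fold change was -0.73, or -0.67 without sh1, against 0.01 over all genes tested. The gene sus1 (GRMZM2G152908), the next most abundant, had 190 and 190 FPKM in the wild-type pair and 206 and 221 in the dek pair. Its log2 fold change was -0.13 (SE 0.118) and did not pass (edgeR, adjusted p = 0.472), with a sign that turned when libraries were scaled by total counts (0.17). The gene sus2 (GRMZM2G318780) had 91.2 and 76.8 FPKM in wild type against 59.7 and 65.1 in dek. Its fall of 0.73 on the log2 scale (edgeR, adjusted p = 0.0269) did not pass without wild type A, dek A or dek B (adjusted p up to 0.131) or with total-count scaling. GRMZM2G311182, described as sucrose synthase 4-like, fell from 56.0 and 49.1 to 25.2 and 23.6 FPKM, a log2 fold change of -1.41 (edgeR, adjusted p = 0.00405).

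The summed level of the sucrose synthases other than sh1 was 337 and 317 FPKM in the wild-type pair and 292 and 310 in the dek pair. The gene sh1 made up 90.2% and 88.0% of the family's summed level in wild type and 48.9% and 60.5% in dek. The ratio of sh1 to the others differed by -2.71 on the log2 scale (95% interval -3.30 to -2.13; edgeR, adjusted p = 0.00216), in a fit where 28.7% of genes passed. The whole family summed to 3042 ± 561 FPKM in wild type and 678 ± 152 in dek.

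Of 10 ADP-glucose pyrophosphorylase genes listed, 8 were tested and 6, sh2 and bt2 included, were lower, beside 8.85% lower over all genes tested. Their median log2 fold change was -1.76, or -1.42 without sh2 and bt2. Among the other large subunit genes, GRMZM2G027955 fell from 55.1 and 73.2 FPKM in the wild-type pair to 24.4 and 19.4 in the dek pair, a log2 fold change of -1.86 (edgeR, adjusted p = 0.00522). GRMZM2G391936 fell from 31.6 and 32.2 to 10.9 and 9.84 FPKM, a log2 fold change of -1.91 (edgeR, adjusted p = 0.0026). GRMZM2G144002 had 12.3 and 12.7 FPKM in wild type against 12.0 and 11.6 in dek and did not pass (log2 fold change -0.38, edgeR, adjusted p = 0.103). A further model, GRMZM5G871471, whose deposited descriptions also name a threonine aldolase, had 23.6 to 36.0 FPKM and did not pass (edgeR, adjusted p = 0.731). It was left out of the subunit sums.

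Of the other small subunit genes, GRMZM2G106213 fell from 81.2 and 78.6 FPKM in the wild-type pair to 44.5 and 43.6 in the dek pair. Its log2 fold change of -1.17 (edgeR, adjusted p = 0.00467) was far smaller than that of bt2. GRMZM2G163437 was scarce, at 3.86 and 4.47 FPKM in wild type, against 1.66 and 1.71 in dek, and its log2 fold change of -1.67 (edgeR, adjusted p = 0.0157) did not pass without dek A or without dek B (adjusted p up to 0.0973).

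Within the large subunits, sh2 made up 94.8% and 93.5% of the summed level in wild type and 90.9% and 92.4% in dek. The ratio of sh2 to the other large subunits differed by -0.56 on the log2 scale, which did not pass (95% interval -1.34 to 0.22; edgeR, adjusted p = 0.15, in a fit where 84.6% of genes passed). Within the small subunits, bt2 made up 96.4% and 96.3% in wild type but 65.0% and 67.4% in dek. The ratio of bt2 to the other small subunits differed by -3.73 (95% interval -4.06 to -3.40; edgeR, adjusted p = 0.000393, in a fit where 76.3% of genes passed).

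Summed over the genes of each kind without GRMZM5G871471, the ratio of large to small subunits was 0.808 and 0.813 in the wild-type pair and 3.92 and 3.95 in the dek pair. The log2 difference was 2.21 (95% interval 1.96 to 2.46; edgeR, adjusted p = 1.51e-06), in a fit where 98.4% of genes passed. In dek the small subunits summed to 135 ± 4.88 FPKM and the large subunits to 533 ± 21.8, against 2290 ± 104 and 1857 ± 75.0 in wild type. The small subunit genes other than bt2 summed to 84.1 ± 1.44 FPKM in wild type, against 45.7 ± 0.665 in dek.

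The brittle1-type carriers other than bt1 were scarce. GRMZM2G080243 had 1.89 and 3.76 FPKM in wild type, against 5.68 and 6.78 in dek, and GRMZM5G836162 had 3.81 and 5.75 against 6.30 and 4.30. Neither passed (edgeR, adjusted p = 0.237 and 0.767), so 1 of the 3 genes of the family, bt1 itself, was lower. The gene bt1 made up 99.7% and 99.5% of the family's level in wild type and 96.3% and 97.1% in dek. Its ratio to the others differed by -2.97 on the log2 scale (95% interval -4.13 to -1.81, edgeR, adjusted p = 2.56e-05), in a fit where 8.72% of genes passed and the spread was in effect pooled over all genes. This difference did not pass without dek A (-2.75, adjusted p = 0.213) or without dek B (-3.23, adjusted p = 0.134).

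**Figure D3:**
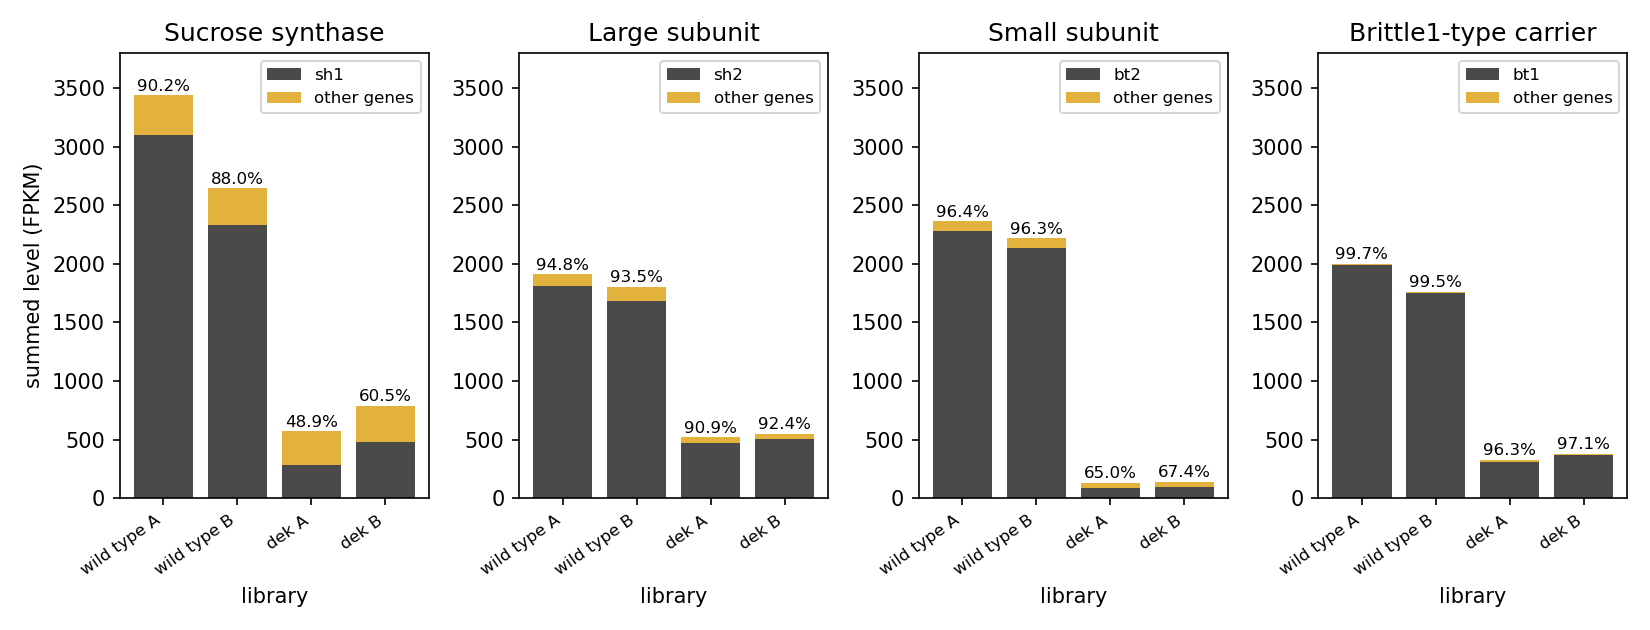
Summed level in FPKM (y axis, from 0) of 4 gene families in each library (x axis), split into the named gene (dark) and the other genes summed (yellow), with the named gene's share printed above each bar. The large subunits leave out the model GRMZM5G871471, with which the sh2 shares would be lower. On these sums the shares of sh1 and bt2 fell to between 48.9% and 67.4% in dek, while sh2 and bt1 kept shares of 90.9% or more.

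The 5 other lists held further steps of the route from sucrose to starch, invertases and endosperm regulators. Of their 106 genes 92 were tested, and 25 were lower and 3 higher, beside 8.85% lower and 7.98% higher over all genes. The split depended on the scaling, with 15 lower and 12 higher by total counts and 12 lower and 12 higher by limma on log2(FPKM + 1). In both of these settings higher calls outnumbered lower calls over all genes tested, so the shares of the main fit are not their background. Without dek A or without dek B, 11 genes passed in place of these 28, and without wild type B 18. Of 33 genes for the hexose phosphate steps between sucrose synthase and the pyrophosphorylase, 8 were lower and 1 higher (median log2 fold change -0.02), against 5 lower and 4 higher by total counts, and 3 genes passed without dek A and 3 without dek B. The most abundant were GRMZM2G032003, a UDP-glucose pyrophosphorylase that turns UDP-glucose into glucose-1-phosphate, GRMZM2G109383, a cytosolic phosphoglucomutase, and GRMZM2G065083, a cytosolic glucose-6-phosphate isomerase. The first fell from 1068 and 923 FPKM in the wild-type pair to 506 and 534 in the dek pair, a log2 fold change of -1.27 (edgeR, adjusted p = 0.00596). The phosphoglucomutase fell by 1.03 (edgeR, adjusted p = 0.0107) and the isomerase by 0.94 (edgeR, adjusted p = 0.0149) on the log2 scale. The phosphoglucomutase did not pass without dek A (adjusted p = 0.0611), nor the isomerase without dek A or without dek B (adjusted p up to 0.0816).

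Of 25 genes for plastid exchange and pyrophosphate removal, 7 were lower and 2 higher (median log2 fold change -0.33). By total counts 3 were lower and 3 higher, and by limma 3 lower and 4 higher. Over all genes tested, higher calls outnumbered lower calls under both of these settings, but not in the main fit. The split of this list thus cannot be read apart from the scaling. Its counts also changed when dek A, dek B or wild type B was left out. GRMZM2G064473, a plastidic ATP/ADP transporter, rose from 14.9 and 14.6 FPKM in wild type to 52.9 and 50.5 in dek, a log2 fold change of 1.53 (edgeR, adjusted p = 0.00274). A glucose-6-phosphate/phosphate translocator gene, GRMZM2G180720, had 124 and 125 FPKM in wild type against 113 and 110 in dek. Its log2 fold change of -0.46 (edgeR, adjusted p = 0.0445) did not pass without any 1 of the 4 libraries (adjusted p up to 0.151). A soluble inorganic pyrophosphatase, GRMZM2G104918, fell by 0.88 on the log2 scale (edgeR, adjusted p = 0.0178), which did not pass without dek A or without dek B (adjusted p up to 0.0908).

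Of 16 starch synthase genes, which use the ADP-glucose, 6 were lower and 10 did not pass, with a median of -0.12. By total counts 5 were lower and 2 higher, and 4 genes passed without dek A and 4 without dek B. The granule-bound starch synthase gene wx1 had 1157 and 933 FPKM in wild type, against 19.6 and 55.3 in dek, a log2 fold change of -5.10 (SE 0.547; edgeR, adjusted p = 0.00593). Its fall rests on dek libraries that differ, at -4.53 without dek A and -6.08 without dek B. The soluble starch synthase genes ss1 and sugary2 fell by 2.46 (edgeR, adjusted p = 0.000967) and 1.70 (edgeR, adjusted p = 0.00263). The fold changes of wx1 and bt2 were the lowest among the genes named along the route, and their order was not resolved, since bt2 was the lower without dek A (-4.85).

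None of 11 invertase genes, which cleave sucrose by the other route, passed in edgeR (median 0.53). At an unadjusted p of 0.05 it passed 4 of them, and at the adjusted threshold limma on log2(FPKM + 1) passed 3 and DESeq2 0. The cell wall invertase gene mn1, expressed in the basal transfer layer, had 193 and 25.1 FPKM in the wild-type pair and 721 and 358 in the dek pair. Both dek values lay above both wild-type values, but its log2 fold change of 1.99 (SE 0.886) did not pass (edgeR, adjusted p = 0.177). Without wild type A it passed, at 4.12 (adjusted p = 0.00422). GRMZM2G477236, whose descriptions name both a lil3 protein and a neutral invertase, had a log2 fold change of 0.01 (edgeR, adjusted p = 0.96).

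Of 7 endosperm regulators, 4 were lower and 3 did not pass, with a median of -0.84. By total counts 2 were lower, and by limma 1. By mean level over all 4 libraries, the most abundant that passed were nkd1, o2 and nkd2, transcription factors of endosperm development and storage. The gene nkd1 fell by 1.39 (edgeR, adjusted p = 0.0213), o2 by 1.91 (edgeR, adjusted p = 0.0383) and nkd2 by 0.84 (edgeR, adjusted p = 0.023) on the log2 scale. These 3 calls were lost without dek A and also without dek B, and o2 and nkd2 also did not pass without wild type B (adjusted p up to 0.158). The fourth, pbf1 (GRMZM2G146283), the prolamin-box binding factor, was named after its values were seen. It had 72.8 and 77.7 FPKM in wild type, against 18.8 and 19.5 in dek. Its log2 fold change of -2.27 (SE 0.123; edgeR, adjusted p = 0.00134) passed without each library in turn (adjusted p up to 0.016). The o2 values, 87.4 and 203 FPKM in the wild-type pair, differed more between pools than those of any of the 4 supply genes.

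**Figure D4:**
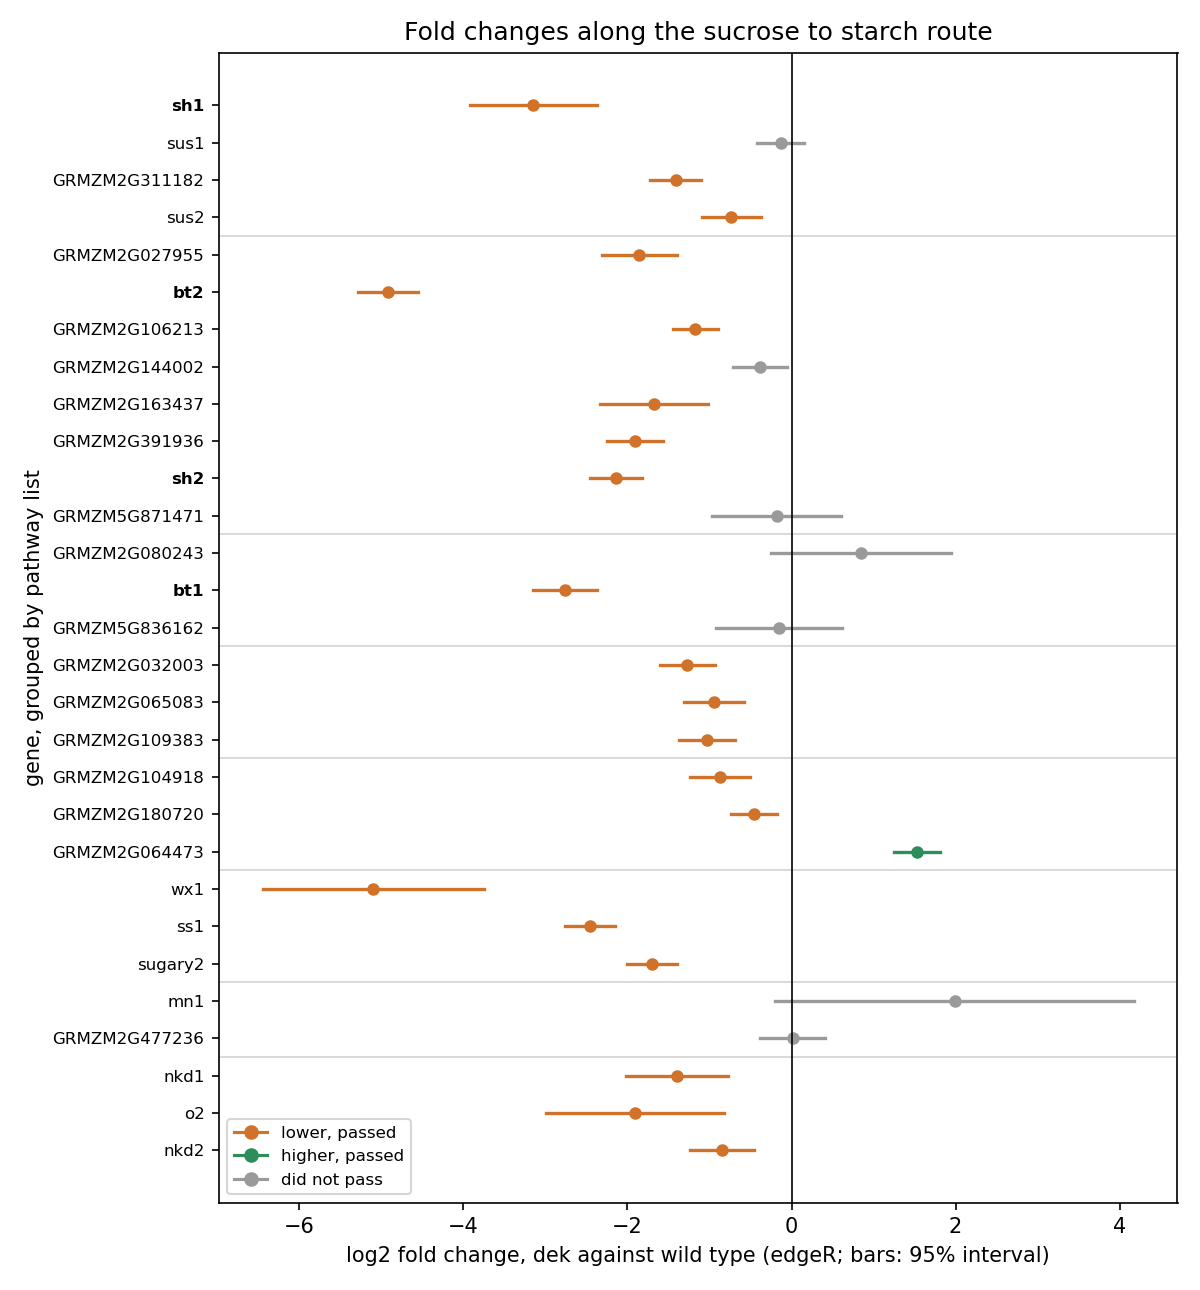
Log2 fold change of dek against wild type (x axis) for genes of the 8 lists (y axis, grouped by list, with sh1, sh2, bt2 and bt1 in bold), with the 95% interval of the edgeR fit as a bar. Orange marks genes that passed the test as lower, green higher and grey not passed; bt2 at -4.92 and wx1 at -5.10 stand lowest, and the ATP/ADP transporter GRMZM2G064473 at 1.53 is the gene shown that passed as higher.

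The genes with the most similar values over the 4 libraries were sought by the distance between log2 CPM values centred on each gene's mean. They were taken from 649 genes with at least 100 FPKM in wild type and an informative description. With 4 libraries in 2 genotypes this measure mainly reflects the fold change. The genes nearest to sh1 were a gamma-thionin gene (GRMZM2G392863, distance 0.478), a pyruvate, phosphate dikinase gene (GRMZM2G097457, 0.487) and a gene described as gibberellin receptor GID1L2 (GRMZM2G049675, 0.555), with bt1 the 4th nearest (0.588). Nearest to sh2 were the starch branching enzyme gene ae1 (GRMZM2G032628, 0.151), a MYB44-like gene (GRMZM2G369799, 0.237) and a gene described as DNA-binding protein S1FA (GRMZM2G147424, 0.271). The gene ae1 had 917 and 962 FPKM in wild type, against 251 and 292 in dek.

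Nearest to bt2 were the delta zein gene dzs10 (0.749), a metallothionein-like gene (GRMZM2G052869, 1.02) and a glycerophosphodiester phosphodiesterase gene (GRMZM2G018820, 1.03), all at larger distances than those found for the other 3 genes. Nearest to bt1 were a gene described as stem-specific protein TSJT1 (GRMZM2G119219, 0.352), a gene described as IDS3 (0.367) and the starch synthase gene ss1 (GRMZM2G129451, 0.384). Between the supply genes, sh2 and bt2 lay furthest apart, at a distance of 2.78, and sh1 and bt1 closest, at 0.588. By this measure sh2 stood 31st among the genes nearest to bt2, while bt2 stood 599th of the 649 among those nearest to sh2.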

How the data were processed

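Endosperm RNA of 2 wild-type and 2 dek pools was analysed from 1 table per library. The expected counts are estimated counts per gene as deposited by the authors, not normalized further. Deposited FPKM values relate these to gene length and to the counted fragments, per the file headers. HISAT, Bowtie2, RSEM and GATK are named, without versions, per the submitters' processing notes. The build, annotation, strand and poly(A) status were not given in the sources used here. Genes absent from a table were set to 0. Names came from a RefSeq table, with 17320 genes matched by model identifier, 5844 by protein accession, 512 with several matches and 10891 with none.

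Counts were rounded and fitted with edgeR 4.0.16 in R 4.3.3 (glmQLFit, glmQLFTest, filterByExpr, two-sided, TMM factors 0.895 and 0.903 for wild type, 1.128 and 1.096 for dek). Benjamini-Hochberg adjustment ran over all genes of a fit. The biological coefficient of variation was 0.226. In ratio fits, the log counts of the second gene, or the summed counts of other family genes, were the offset. The smallest permutation p with 2 against 2 libraries is 0.333, so none is given. The fits were also run on simulated counts with known changes. These were drawn with the same dispersion for every gene, so they do not cover genes of unequal spread.

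The 4 genes and all lists were chosen with earlier results of these data known. Lists were matched by deposited descriptions, annotation terms and symbols. Genes matched by an annotation term alone were dropped, 80 in all, where they held further terms or a description of another protein, as were 2 marker matches whose symbol stood for another protein. The genes named were the 4 genes and all genes of their families whose mean reached 1 FPKM in a genotype. Of each other list they were the 3 most abundant past the threshold, or the 2 most abundant where none passed, and for each of the 4 genes its 3 nearest by values. Ratios within families were added after the data were seen. Alternatives were DESeq2 1.42.0 size factors and Wald test, upper-quartile and total-count scaling, limma 3.58.1 on log2 FPKM (pseudocounts 1 and 0.1), fits with no filter, 50 counts in 2 libraries, replicate blocks, and each library left out. A gene with any description of the enzyme stayed in its list, also where another description names a different protein. Promoter motifs were not analysed here. Tables and figures used Python 3.11.15, pandas 2.3.3, scipy 1.17.1 and matplotlib 3.10.9.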

Additional observations from a re-analysis of the deposited data

How the results depend on the processing

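The falls of sh1, sh2, bt2 and bt1 passed in all 14 alternatives, with log2 fold changes of -3.63 to -2.81, -2.24 to -1.84, -5.02 to -4.61 and -2.92 to -2.46. Scaling by total counts moved the median of all genes by 0.31 and the split of calls from 2178 lower and 1966 higher to 1280 and 4492, and limma on log2(FPKM + 1) gave 1136 and 3997. Leaving out 1 library gave 668 (without dek A), 844 (dek B), 2667 (wild type B) and 3657 (wild type A) calls against 4144, and 19 to 35 calls over all 8 pathway lists against 38, or 11 to 26 against 28 without the 3 families of the 4 genes. With limma on log2(FPKM + 0.1) these counts were 24 and 15. The split over all 8 lists, 35 lower and 3 higher, was 24 and 12 by total counts, 21 and 12 by limma on log2(FPKM + 1) and 16 and 8 with 0.1. The letters A and B are not stated to pair pools, and same-letter deviations correlated at -0.02. The replicate block by letter gave 1891 calls in all, 25 over the lists (16 without the families), and kept the falls of all 4 genes (sh1 adjusted p = 0.0212, edgeR). It ended the call for bt1 against the other carriers (-2.93, adjusted p = 0.156), and for sus2 (adjusted p = 0.0613), GRMZM2G180720 (0.0805), nkd1 (0.0581), o2 (0.0964) and nkd2 (0.0569). The replicate block crossed passed bt1 to sh1 (0.42, adjusted p = 0.023) and sh2 to the other large subunits (-0.56, adjusted p = 0.0055). Leaving out 1 library moved the log2 ratio of bt2 to sh1 between -2.07 and -1.42 and that of bt1 to the other carriers between -3.34 and -2.48. With the first gene of a pair as the reference, added after seeing the data, the same pairs passed, with bt1 to sh1 at an adjusted p of 0.0557 (edgeR). Ratios from estimated counts without length differed from the FPKM ratios by less than the replicate spread except that of all large to all small subunits (2.21 against 2.28). The 4 genes took 1.21% of summed FPKM in wild type and 0.189% in dek. Without a call in any of these settings, the sign turned for sus1 (0.17 with total counts and 0.17 with limma at either pseudocount), for GRMZM5G871471 (0.12 with total counts, 0.0713 and 0.0732 with limma, -0.635 to 0.19 without 1 library), for GRMZM5G836162 (0.16, 0.13 and 0.15 under these scalings, -0.43 to 0.16 without 1 library) and for GRMZM2G477236 (-0.13 without wild type A and -0.12 without dek B). The causes were not tested. Of 30 other named genes that passed, 21 passed without each library in turn.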
